A study of Mus musculus with 179 samples.

Results

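Mitosis and spindle genes were followed across single cells grown from mouse exocrine pancreas. The set holds 36 genes, chosen by symbol, of 32100 genes in the deposited table, and all 36 were found there. Primary acinar cells of wild type C57BL6 mice were isolated by digestion and a density gradient and kept for 9 days as organoids in Matrigel, a basement membrane gel. Each cell is its own sample, with a name such as Acinar27, and RNA was read by Smart-seq3, a plate method that counts molecules through unique molecular identifiers (UMIs). All cells belong to 1 group, with no animal or culture named, so cells are not replicates and no test or p-value was computed from them.

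The labels call the cells acinar. The acinar list of 22 enzyme and transcription factor genes had a median of 164.6 CPM, the UMIs of a gene set scaled to the total of the cell, against 11340 CPM for the 15 duct genes. Cells gave a median of 165267 UMIs (range 3258 to 329522). Shares of cells and relations between genes were therefore taken after thinning each cell at random to 40000 UMIs. This kept 89.9% of cells, with 18 shallower ones not used, and 1 thinned UMI stands for 25 CPM. By the number in the name of the cell, its title number, 80 of 83 cells were kept up to 96 and 81 of 96 from 97. The 24 cells with title numbers 97 to 120 had a median of 43006.5 UMIs, and 14 of them were kept. In 6 cells fibroblast genes held at least 1000 CPM, and in 4 others acinar genes held at least 10000 CPM.

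A dividing cell builds these transcripts up from S phase, when DNA is copied, into mitosis and destroys many of the proteins at the end of mitosis. Cyclin A and cyclin B drive Cdk1, Plk1 and the Aurora kinases build the spindle, kinetochore proteins tie chromosomes to microtubules, and the anaphase-promoting complex, switched on by Cdc20, degrades the cyclins so that the cell can divide. Normal adult acinar cells seldom divide, and they enter the cycle after injury and in culture.

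Many cell cycle genes share short promoter elements. The stretches before the start of 6 members are shown as examples, chosen after seeing the data. Birc5 and Cdca8, not shown, correlated more closely with the rest of the set than any of the 6. Each is taken from the 150 bases upstream of the start in RefSeq GRCm38.p6, ended where it would run more than 30 bases into the gene as GENCODE annotates it, and is written 5′ to 3′ along the gene. Capitals mark TTTGAA, its reverse complement TTCAAA and the variant TTCGAA, which are forms of the cell cycle genes homology region, and CCAAT with its reverse complement ATTGG. Cdk1 lies at chr10:69352913-69353062 on the minus strand, Mki67 at chr7:135716380-135716529 on the minus strand, and Top2a at chr11:99024190-99024339 on the minus strand. Cdc20 lies at chr4:118437344-118437493 on the minus strand, Ube2c at chr2:164769779-164769927 on the plus strand, and Ccnb1 at chr13:100786541-100786636 on the minus strand.
Cdk1: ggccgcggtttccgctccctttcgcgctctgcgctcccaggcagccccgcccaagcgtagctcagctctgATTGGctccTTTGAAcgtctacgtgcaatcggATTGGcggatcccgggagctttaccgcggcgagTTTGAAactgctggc
Mki67: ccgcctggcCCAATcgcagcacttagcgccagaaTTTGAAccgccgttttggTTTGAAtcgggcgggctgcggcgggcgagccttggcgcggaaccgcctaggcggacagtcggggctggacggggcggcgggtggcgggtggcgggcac
Top2a: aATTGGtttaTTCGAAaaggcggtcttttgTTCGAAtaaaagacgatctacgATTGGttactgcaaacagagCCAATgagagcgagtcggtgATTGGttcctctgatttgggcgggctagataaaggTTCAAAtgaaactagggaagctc
Cdc20: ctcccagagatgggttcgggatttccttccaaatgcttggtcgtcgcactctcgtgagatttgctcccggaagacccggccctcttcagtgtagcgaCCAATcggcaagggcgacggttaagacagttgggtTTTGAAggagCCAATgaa
Ube2c: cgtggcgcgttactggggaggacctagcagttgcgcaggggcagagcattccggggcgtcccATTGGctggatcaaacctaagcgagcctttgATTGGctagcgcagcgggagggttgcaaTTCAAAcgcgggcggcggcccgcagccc
Ccnb1: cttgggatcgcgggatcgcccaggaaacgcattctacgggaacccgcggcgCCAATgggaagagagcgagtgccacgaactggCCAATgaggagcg

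Of the 36 members, 30 were matched to a promoter of 250 bases before to 50 bases after the start. Those not matched were Aurkb, Ccna2, Kif20a, Pif1, Stmn1 and Tpx2. A homology region form stood on either strand in 24 of the 30 (80%), a CCAAT box in 24 (80%), and both in 22 (73.3%). Birc5, Nuf2, Nusap1 and Tacc3 held neither. Among all 32851 promoters of that length the shares were 19.2%, 37.4% and 7.52%. Among the 7233 promoters of genes with a mean of at least 0.5 thinned UMI per cell they were 16.1%, 42.8% and 6.80%. Matches of the 2 kinds could overlap. In the stretches printed above, Cdk1 and Mki67 hold 2 homology region forms each, Top2a holds 3, Cdc20 and Ube2c hold 1 each, and Ccnb1 holds 0 beside 2 CCAAT boxes. These are matches of letters and not measured binding.

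The members together held 3479 CPM of the pooled UMIs (exact 95% Poisson interval 3458 to 3501, counting error only). Their level differed widely from cell to cell. On the CPM scale the lowest cell held 83.6, the quartiles were 447 and 4897, the median was 1669 and the highest cell held 12760. In thinned cells the summed members ranged from 4 UMIs in Acinar155 to 475 in Acinar4, with a median of 64. The range was filled almost throughout, and the widest gap near its middle lay between 67 and 89 UMIs, with 84 cells below and 77 above.

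The number of members with a UMI followed the same spread. A thinned cell had a median of 19 of the 36 members (quartiles 8 and 32, range 2 to 36). At least 30 members were found in 52 thinned cells (32.3%, exact 95% binomial interval 25.2 to 40.1%), and all 36 in 8 cells. At least 3 members were found in 99.4% of thinned cells, so that a few UMIs of the set were present in nearly every cell.

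**Figure D1:**
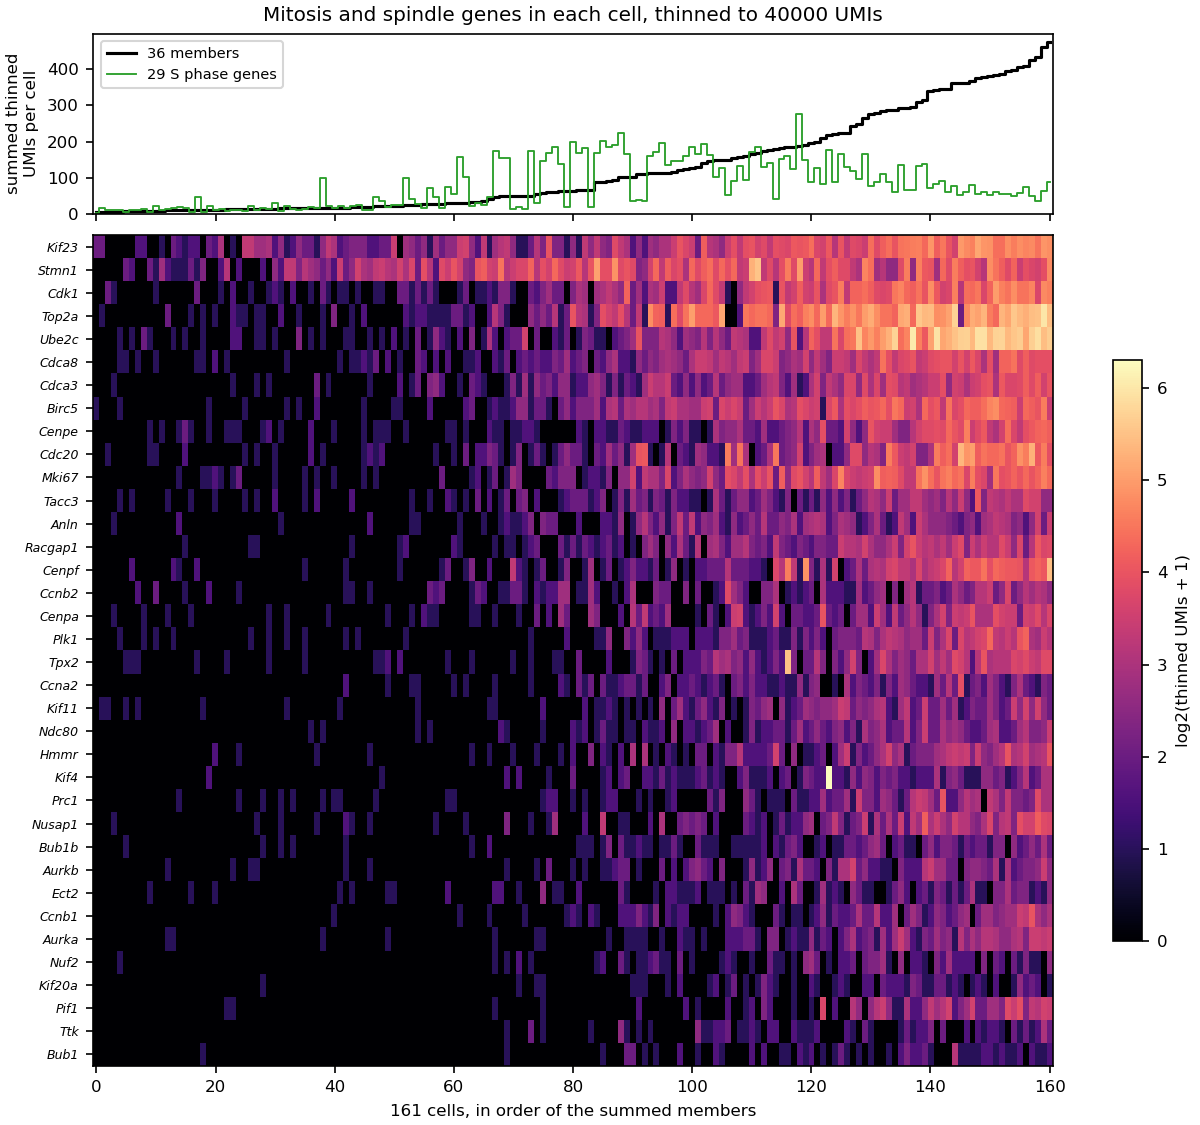
The lower panel gives log2(thinned UMIs + 1) of each member (rows, ordered by share of cells) in each thinned cell (columns, ordered by summed members), and the upper panel gives the summed UMIs of the 36 members and of 29 S phase genes in the same cells. Most members light up together toward the right, Kif23 and Stmn1 reach far to the left, and the bright Kif4 entry is Acinar93.

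Kif23 and Stmn1 were found in the most cells. Kif23, a kinesin of the central spindle needed for cytokinesis, had a UMI in 92.5% of thinned cells (87.3 to 96.1%). Stmn1, which destabilises microtubules and also acts outside mitosis, had a UMI in 91.3% (85.8 to 95.2%). A wide step separated them from the rest. The next were Cdk1 with 74.5% (67.1 to 81.1%), and Top2a and Ube2c with 73.3% each (65.8 to 79.95%).

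In all, 2 members lay at 90% or more, 19 between 50% and 75% and 15 under 50%. After the leading 5 came Cdca8 with 72.05%, Cdca3 with 67.7%, Birc5 and Cenpe with 66.5% each, Cdc20 with 65.2%, Mki67 with 64.6% and Tacc3 with 63.98%. Anln and Racgap1 followed with 57.8% each, Cenpf with 56.5%, Ccnb2 with 54.7%, Cenpa with 53.4%, Plk1 with 52.8%, Tpx2 with 52.2%, Ccna2 with 50.9% and Kif11 with 50.3%. Neighbours in this order differed by less than the width of their intervals.

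Below 50% stood Ndc80 with 49.7%, Hmmr with 47.2%, Kif4, Prc1 and Nusap1 with 46.6% each, Bub1b and Aurkb with 45.3% each, Ect2 with 43.5%, Ccnb1 and Aurka with 42.9% each and Nuf2 with 35.4%. The lowest 4 were Kif20a with 31.1% (24.01 to 38.8%), Pif1 and Ttk with 30.4% each (23.4 to 38.2%) and Bub1 with 29.2% (22.3 to 36.9%). Kif20a is a kinesin of the cleavage furrow, Pif1 a DNA helicase, Ttk the kinase that starts the spindle checkpoint and Bub1 a checkpoint kinase at the kinetochore. Their intervals overlap, so that the order among them is not resolved. Without thinning and in all cells, the median share over members was 65.1% in place of 52.5%.

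**Figure D2:**
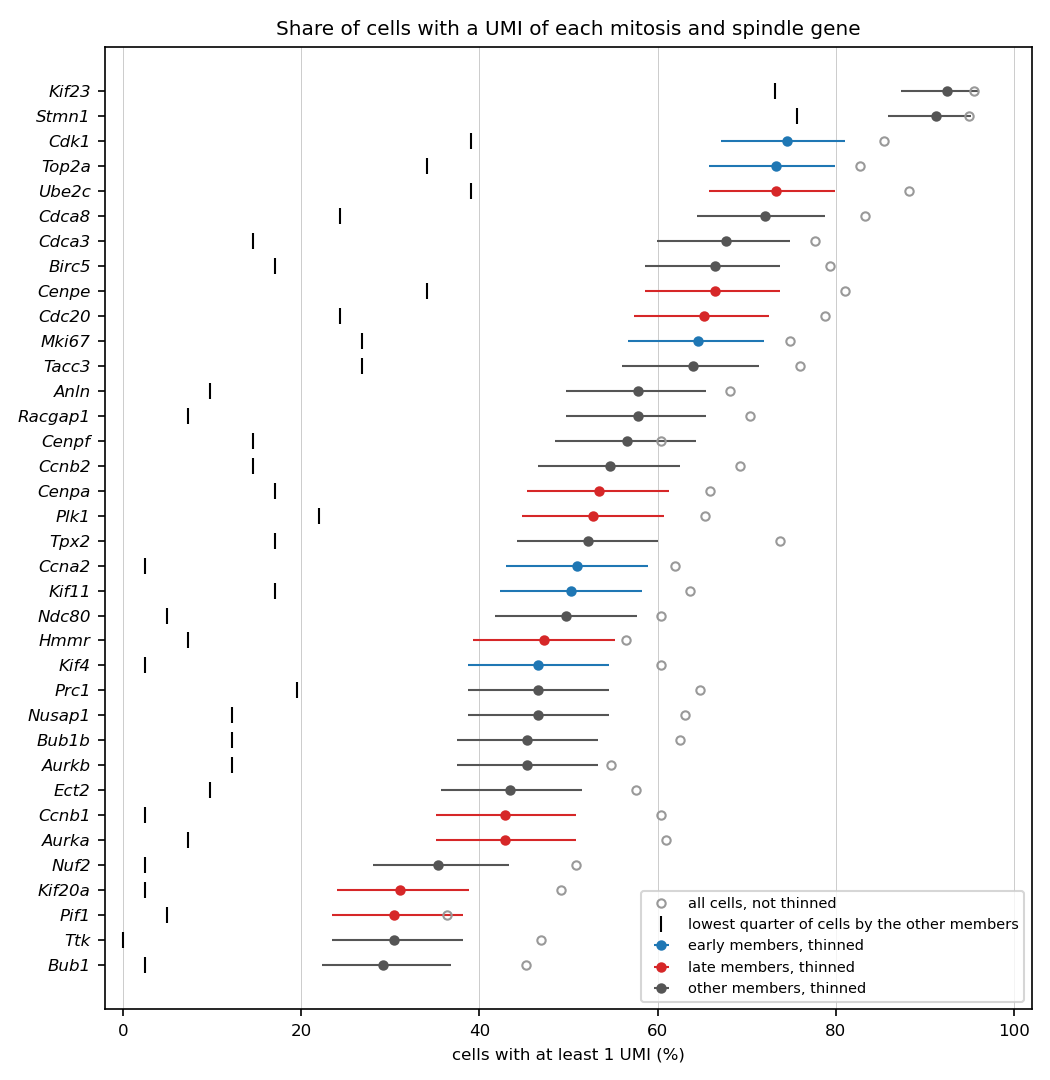
Filled points give the share of thinned cells with at least 1 UMI of each member, with exact 95% binomial intervals for counting error. Open circles give the share of all cells without thinning, and black ticks give the share in the 41 cells with the fewest UMIs of the other members. Kif23 and Stmn1 stand to the right of the rest on each of the 3 measures.

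The share of cells followed the level. Across the 36 members the rank correlation of the share with the pooled CPM was 0.93, a description over genes that share libraries and depth. Early and late members were mixed along the order, with early Ccna2 at 50.9% and late Cdc20 at 65.2% (intervals 42.9 to 58.9% and 57.3 to 72.5%). A UMI of Smart-seq3 marks the 5′ end of a molecule, so levels in CPM of UMIs were not divided by gene length. The highest were those of Top2a and Ube2c and the lowest that of Bub1.

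Ccna2, Cdc20 and Mki67 mark S phase onward, the exit from metaphase and cycling cells in general. Ccna2 (cyclin A2, chr3:36564865-36572150 of GRCm38, minus strand) held 38.1 CPM (35.9 to 40.5), and thinned cells ran from 0 through a median of 1 to 14 UMIs. Cdc20 (chr4:118432901-118437352, minus strand) held 151.7 CPM (147.2 to 156.3), with a median of 2 and a highest value of 40 UMIs. Both of these highest values came from the same cell, Acinar82. Mki67 (Ki-67, the coat protein of mitotic chromosomes, chr7:135689784-135716361, minus strand) held 167.04 CPM (162.3 to 171.9), with a median of 3 and a highest value of 28 UMIs in Acinar181.

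Among cyclins and Cdk1, the kinase Cdk1 held 197.2 CPM (192.05 to 202.5), with quartiles of 0 and 13 thinned UMIs and a highest value of 31. Ccnb2, cyclin B2, held 56.5 CPM (53.7 to 59.4) with quartiles of 0 and 3 and a highest value of 13 UMIs. Ccnb1, cyclin B1 and the main partner of Cdk1 at mitotic entry, held 46.4 CPM. Cdk1 thus had the most UMIs of its group, and its interval did not overlap that of Ccnb2.

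Among mitotic and checkpoint kinases Plk1, which matures centrosomes, held 75.3 CPM (72.1 to 78.55) and Aurka, which builds spindle poles, held 46.9 CPM (44.4 to 49.5). Their highest thinned values were 19 and 10 UMIs. Bub1b held 28.5 CPM, Ttk 15.8 and Bub1 13.2, and all 3 belong to the checkpoint that delays anaphase until chromosomes are attached. Bub1 gave a mean of 0.497 thinned UMI per cell and was the only member under the mean of 0.5 set for correlation across all genes.

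In the chromosomal passenger complex, which corrects attachments and then moves to the midzone, Birc5 (survivin) held 169.4 CPM (164.6 to 174.3) and Cdca8 (borealin) 125.5 CPM (121.4 to 129.8). The kinase of the complex, Aurkb, held 40.5 CPM. Thinned cells ran from 0 to 27 UMIs for Birc5 and from 0 to 21 for Cdca8. Among centromere and kinetochore genes, Cenpf, a large outer kinetochore protein, held 117.6 CPM (113.6 to 121.7), and Cenpe, a kinetochore motor, 103.4 CPM (99.7 to 107.3). Cenpa, the histone H3 variant of centromeres, held 71.4 CPM. Ndc80 and Nuf2, which bind microtubules together in the Ndc80 complex, held 44.96 and 23 CPM.

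Spindle motors and microtubule proteins were led by Stmn1 with 276.5 CPM (270.4 to 282.8) and Tpx2, an activator of Aurora A, with 81.7 CPM (78.3 to 85.1). Stmn1 ran from 0 through a median of 10 to 45 thinned UMIs. In Tpx2, 237 UMIs came from Acinar71, where the next highest cell had 75, and without Acinar71 the level was 73.7 CPM. Tacc3 held 72.1 CPM, Nusap1 62.03, Hmmr 58.1 and Kif11, the motor that pushes spindle poles apart, 51.1.

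Kif4, a chromosome-bound kinesin, held 57.1 CPM, and 513 of its UMIs (32.3%) came from Acinar93, where the next highest cell had 31. Without Acinar93 it held 38.99 CPM (36.7 to 41.4). Its reads per UMI in that cell, 1.81, were close to the 1.93 of the whole cell. Kif4 shares exon sequence on opposite strands with Pdzd11, which had 16 UMIs in Acinar93.

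Among midzone and cytokinesis genes, Kif23 held 249.6 CPM (243.8 to 255.6), with a median of 7 and a highest value of 34 thinned UMIs, and its partner in the centralspindlin complex, Racgap1, held 84.9 CPM (81.5 to 88.3), with a median of 1 and a highest value of 16. Anln, an actin-binding protein of the furrow, held 65.1 CPM, Prc1, which bundles midzone microtubules, 45.6, Ect2, the exchange factor that activates RhoA, 23.1 and Kif20a 17.1.

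In the group of the anaphase-promoting complex, Ube2c, its ubiquitin-conjugating enzyme, held 316 CPM (309.5 to 322.8), followed by its activator Cdc20. Cdca3, listed with them but neither an activator nor an enzyme of the complex, held 112.99 CPM. Ube2c ran from 0 through a median of 3 to 65 thinned UMIs. Top2a, the topoisomerase that untangles sister chromosomes, held 332 CPM (325.4 to 339), with a median of 3 and a highest value of 63 UMIs, and Pif1 held 41.9 CPM. Exons of Ccna2, Plk1, Nusap1, Kif4, Kif20a, Cdc20, Prc1, Cdca8 and Tacc3 overlap exons of a gene on the other strand that had counts, and whether counting used strand is not stated. Their levels are uncertain to that extent, as are those of Ccnb1, Ccnb2 and Kif4, for which pseudogene copies are annotated.

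Cells were then ordered by the summed members other than the gene in question and divided into 4 bins. The lowest bin of 41 cells gives each gene's background, and the highest holds 40 cells. Over the 36 members the median share of cells with a UMI was 14.6% in the lowest bin, against 97.5% in the highest. There, 16 members were found in every cell and 29 in over 90% of cells, and in the lowest bin 14 members were under 10%.

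Ccna2 was found in 1 of 41 cells of the lowest bin (2.44%, 0.0617 to 12.9%) and in 92.5% of the highest (79.6 to 98.4%). Cdc20 went from 24.4% (12.4 to 40.3%) to 97.5% (86.8 to 99.9%), and Mki67 from 26.8% (14.2 to 42.9%) to 100%. Ttk was found in 0 of 41 cells of the lowest bin, which allows a share of up to 8.60% by the exact interval. Kif23 and Stmn1 were the exceptions, with 73.2% (57.1 to 85.8%) and 75.6% (59.7 to 87.6%) in the lowest bin, and both at 100% at the top.

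In mean thinned UMIs, the highest bin exceeded the lowest 78.8-fold for Birc5, 66.4-fold for Ube2c, 63.8-fold for Hmmr and 63.2-fold for Top2a. The ratio for Birc5 rests on a mean of 0.195 UMI in the lowest bin. No ratio was taken for members with very few UMIs there, such as Ccnb1 and Racgap1. The ratio was 6.59 for Kif23 and 3.52 for Stmn1. Ube2c went from a mean of 0.561 to 37.3 UMIs, whereas Stmn1 went from 4.0 to 14.1. Mean Stmn1 in the third bin was already 15.9.

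Genes also differed in where along the order they increased. The mean was higher in the fourth bin than in the third for 34 of 36 members, with a median ratio of 2.30. The largest ratios were 12.8 for Pif1, 6.45 for Ube2c, 5.61 for Prc1 and 4.76 for Aurka. Stmn1 had 0.88 and Kif4 0.97. Over the 10 late members the median ratio was 3.71 (2.32 to 12.8), and over the 6 early members 2.18 (0.97 to 2.48), the early range resting on Kif4 and Acinar93 at its lower end.

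Depth before thinning was higher where the members were, from a median of 145690 UMIs in the lowest bin of the whole sum to 197848 in the highest, and the median mitochondrial share went from 1.09% to 0.88%. The rank correlations with the members were 0.27 for depth, 0.24 for genes detected and -0.29 for the mitochondrial share. Their part in these values was not tested. Of the 6 cells rich in fibroblast genes, 3 lay in the lowest bin with 5, 5 and 7 member UMIs, 2 in the third with 28 members found in each, and Acinar105 in the highest with 362. The 4 cells richest in acinar genes held 83.6 to 276 CPM of the members.

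Each member was related to the others across cells. The rank correlation of a member with the summed others had a median of 0.79 over thinned cells, from 0.61 for Ttk to 0.91 for Birc5. The genes share libraries and depth in each cell. At or above 0.4 lay all 35 members tested, beside 5.64% of the 9746 genes tested. Among the 630 pairs of members the median was 0.66, the highest 0.87 for Birc5 with Cdca8 and the lowest 0.27 for Stmn1 with Pif1.

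To place members in time, 6 were taken as early (Ccna2, Cdk1, Top2a, Mki67, Kif11 and Kif4) and 10 as late (Cdc20, Plk1, Aurka, Ccnb1, Cenpa, Cenpe, Kif20a, Hmmr, Ube2c and Pif1). Ccna2 and Cdc20 were both found in 76 cells and neither in 50. Cdc20 without Ccna2 was found in 29 cells and Ccna2 without Cdc20 in 6, and Cdc20 had the higher level of the pair. Pairs correlated at a median of 0.77 within early members, 0.73 within late members and 0.68 across the sets.

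The correlation with Cdc20 exceeded that with Ccna2 by a median of 0.08 for the late members (0.04 to 0.12) and differed by -0.003 for the early ones. This separation of 0.08 fell to 0.01 with another random thinning, so these correlations did not place the members firmly in time.

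The mix of early and late transcripts within a cell was broader. In the 80 cells of the upper 2 bins, late members made up from 12.95% to 88% of early plus late UMIs, with quartiles of 31.6% and 61.7% and a median of 47.8%. Acinar27 had the highest late share, with 9 early and 66 late UMIs, among them 22 of Cdc20, 1 of Ccna2 and 1 of Cdk1. Acinar93 had the lowest, with 18 late UMIs, but Kif4 alone made up 78 of its early ones, and without Kif4 its late share was 29.5%. With Kif4 left out, the lowest late share was 14.04% in Acinar57.

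S phase genes, which copy DNA, ran against the late share. The summed 29 S phase genes and the late share had a rank correlation of -0.84 over the 80 cells (-0.83 without Kif4). When these cells were divided into 3 groups of 27, 26 and 27 by rising late share, the S phase sum had medians of 4150, 2650 and 1450 CPM of the thinned cell. Of the 27 S phase genes tested, 20 lay at or below -0.4 and 0 at or above 0.4, beside 0.803% and 0.299% of 9710 genes outside the members. The strongest were the replicative helicase subunits Mcm3 with -0.80 and Mcm6 with -0.77 and the polymerase clamp Pcna with -0.75, whose median went from 17 to 4 UMIs. The summed members also differed between these groups, with medians of 3250, 6150 and 8625 CPM of the thinned cell, and their part in the relation was not tested.

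**Figure D3:**
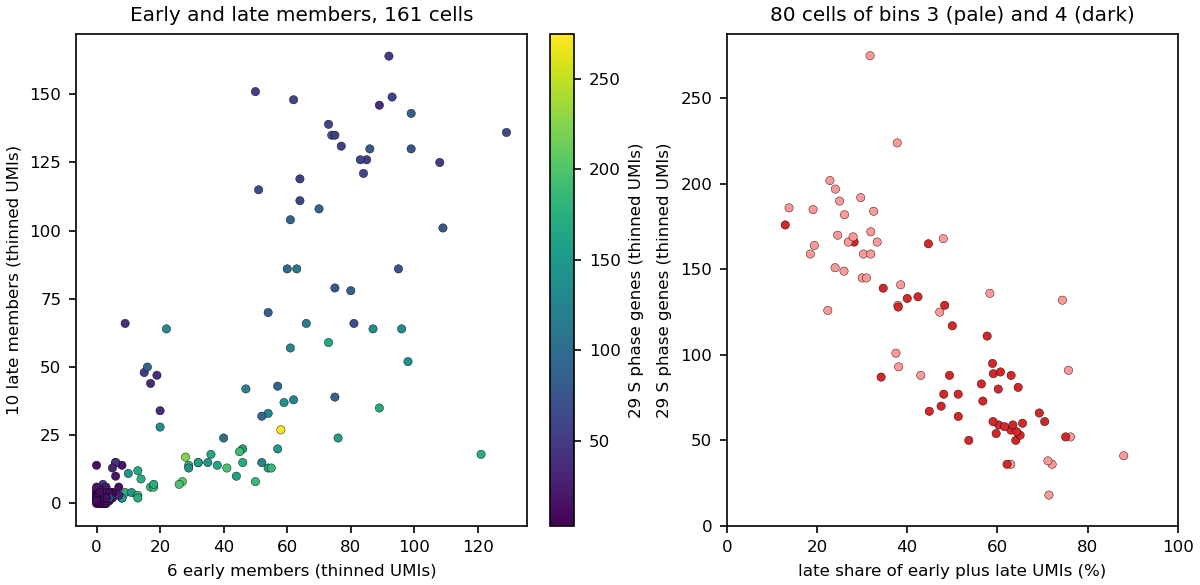
Left, thinned UMIs of the 6 early members (horizontal) against the 10 late members (vertical) in the thinned cells, coloured by the summed UMIs of 29 S phase genes. Right, the late share of early plus late UMIs in percent against the S phase sum in the 80 cells of the upper 2 bins, where the sum falls as the late share rises (rank correlation -0.84).

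Each member was set against a late share computed without it. Cdc20 stood highest with a correlation of 0.74, and Cenpa followed with 0.71, Ccnb1 with 0.68, Hmmr, a spindle assembly factor, with 0.67 and Ccnb2 with 0.64. With the cells divided in 3 by each gene's own such share, mean Cdc20 was 2.74, 9.46 and 18.3 UMIs. Cenpa had 1.11, 5.19 and 8.41.

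At the other end were Stmn1 with -0.29, Aurkb with -0.10 and Kif11 with -0.10. Mean Stmn1 was 17.6, 14.96 and 12.7 UMIs. Mean Top2a was 19.7, 28.2 and 22.96 UMIs, with medians of 19, 27 and 26. Mean Cdk1 was 11.04, 15.4 and 13.8 UMIs, with medians of 10, 15 and 16. The mean and median of both genes were thus lowest in the group with the lowest late share. Single cells differed, and each gene was found in 100%, 100% and 92.6% of cells of the groups. Acinar27, Acinar33 and Acinar34, with the highest late shares of the 80 cells, held 4, 0 and 0 UMIs of Top2a. They held 1, 1 and 0 of Cdk1. That share counts both genes as early, so that low values raise it. Ccna2 and Mki67, listed as early, were higher at a higher late share, with 0.33 and 0.39. Ccna2 had means of 1.67, 2.77 and 3.59 UMIs. The 6 early members lay between -0.10 and 0.39 and 9 of the 10 late members between 0.45 and 0.74. Late Kif20a, with 0.38, lay just under early Mki67. The share is itself made of these 2 sets, so their order is a description only.

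**Figure D4:**
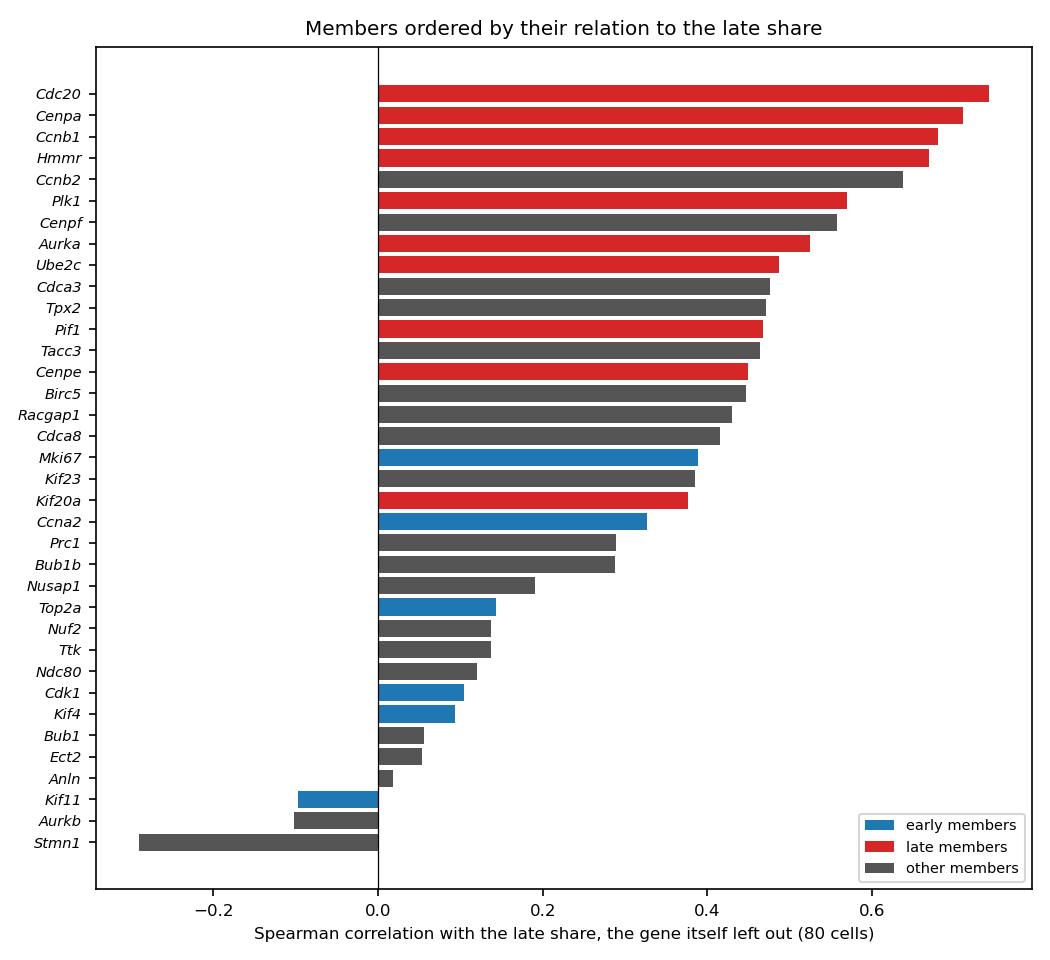
Bars give the rank correlation, over 80 cells, of each member with the late share of early plus late UMIs, with the gene itself left out of the share. Blue bars are early, red bars late and grey bars other members, and they run from 0.74 for Cdc20 to -0.29 for Stmn1.

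Across all thinned cells S phase genes were highest at intermediate levels of the members. Their sum had medians of 300, 950, 3875 and 1925 CPM of the thinned cell in the 4 bins of the summed members. The rank correlation with the members was 0.63. At or above 0.4 lay 16 of the 27 tested, beside 5.64% of the 9746 genes tested. The highest were Rrm1, the large subunit of ribonucleotide reductase, with 0.73, Tyms, which makes thymidylate, with 0.67 and Rrm2 with 0.67. The lowest were Ung with 0.06, Ccne1 with 0.18 and Cdc6 with 0.22. Pcna was at 1, 4, 14 and 6 UMIs.

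Of 50 other mitosis genes tested, 48 lay at or above 0.4, beside 5.64% of the 9746 genes tested. The highest were Hmgb2, a chromatin protein, with 0.88, Tuba1b, an alpha tubulin, with 0.88 and the condensin subunit Smc2 with 0.87. Mean Hmgb2 was 2.73 UMIs in the lowest bin, against 42.05 in the highest. The lowest were Psrc1 with 0.08, Fzr1, the other activator of the anaphase-promoting complex, with 0.26 and Mybl2 with 0.41.

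Outside the members, the 15 genes most like the sum over thinned cells were Hmgb2, Tuba1b, Smc2, Kif22, Ncapd2, Smc4, Rangap1, Spc24, Kif20b, Gm4739, Cdc25c, H2afz, Tubb5, Mad2l1 and Incenp, with rank correlations of 0.88 to 0.80. Gm4739 may share reads with a near-identical copy and is uncertain. The most opposite were Mxd4, a repressor that opposes Myc, with -0.71, the nuclear RNA Neat1 with -0.63, the lysosomal protease Ctsd with -0.60, Ypel3 with -0.60 and Itm2b with -0.58. Mean Mxd4 was 5.78 UMIs in the lowest bin, against 0.35 in the highest.

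Of 16 tested G1 and inhibitor genes, 2 lay at or below -0.4, beside 0.657% of the 9746 genes, and 1 at or above 0.4, beside 5.64%. The median gene was at -0.15. Btg2, an antiproliferative gene, had -0.54 and medians of 8, 4.5, 1 and 1 UMIs over the bins. Cdkn1a, the inhibitor p21, had -0.41 and medians of 27, 12, 8.5 and 5. Next lowest was Ccng1, a target of p53, with -0.39. Cdkn2c, an inhibitor of Cdk4 and Cdk6, was highest with 0.51, followed by Cdk4 with 0.31 and Cdkn2a with 0.16. Btg2 ran from -0.43 to -0.58 over 8 other settings. Cdkn1a ran from -0.35 to -0.46 over the same 8 and fell short of -0.4 in 5 of them, so that its place among the 2 is not firm.

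Duct genes were weakly related to the members. Their sum had a rank correlation of -0.30 over thinned cells and medians of 501, 469, 420.5 and 411 UMIs over the bins. Of 14 tested duct genes 1 lay at or below -0.4 and 0 at or above 0.4, beside 0.657% and 5.64% of the 9746 genes tested. The median duct gene was at -0.07, beside 0.02 over all 9746 genes. The 1 duct gene at or below -0.4 was Cldn4, a tight junction protein, with -0.42 and medians of 29, 21.5, 12.5 and 8 UMIs. Next lowest were Slc4a4, a bicarbonate transporter, with -0.29 and Krt19, a duct keratin, with -0.18.

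The highest duct genes were Cftr, the chloride channel, at 0.19, Ambp at 0.18 and Krt7, the most abundant duct gene, at 0.14, with Krt7 medians of 2150, 3462.5, 3625 and 3250 CPM of the thinned cell. Without Krt7 the sum of the remaining duct genes had -0.44. The Pearson correlation of log2(thinned UMIs + 1) was -0.09. Cldn4 had -0.26 in cells with title numbers up to 96 and -0.56 in those from 97, and it fell short of -0.4 in 2 of 8 other settings. In blocks of 24 title numbers the duct sum ran from -0.02 in 1 to 24 to -0.62 in 25 to 48. The sign of the duct sum and of Cldn4 held under every setting tried and the size did not.

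The sum of 20 injury and metaplasia genes had a rank correlation of -0.47 and medians of 1216, 1116.5, 906 and 843.5 UMIs over the bins. This value rested largely on Clu, a secreted chaperone raised in injured epithelium, and without Clu the value was -0.20. Clu itself had -0.43 and medians of 417, 373, 257 and 185.5 UMIs. Its ranges of 9 to 1139 in the lowest bin and 20 to 429 in the highest overlapped widely. Both of these lowest values came from cells rich in fibroblast genes, Acinar182 and Acinar105. Without the fibroblast-rich cells Clu had -0.51 and the injury sum -0.55.

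Of the 20 injury genes 1, Clu, lay at or below -0.4 and 0 at or above 0.4, beside 0.657% and 5.64% of all genes tested, and the median gene was at -0.09. S100a11 had -0.27 and Tff1 -0.21. At the upper end were Ly6a with 0.19, Mmp7, a metalloprotease of metaplastic ducts, with 0.19 and Tff2 with 0.16. Mmp7 had medians of 27, 79.5, 75 and 55 UMIs and was thus lowest in the cells with the fewest members. Cells with title numbers up to 96 and from 97 gave -0.38 and -0.58 for the sum and -0.43 and -0.45 for Clu. Blocks of 24 title numbers, with 14 to 24 thinned cells each, spread more widely. The sum ran from -0.05 in 1 to 24 to -0.82 in 97 to 120. Clu ran from -0.06 in 1 to 24 to -0.66 in 73 to 96.

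**Figure D5:**
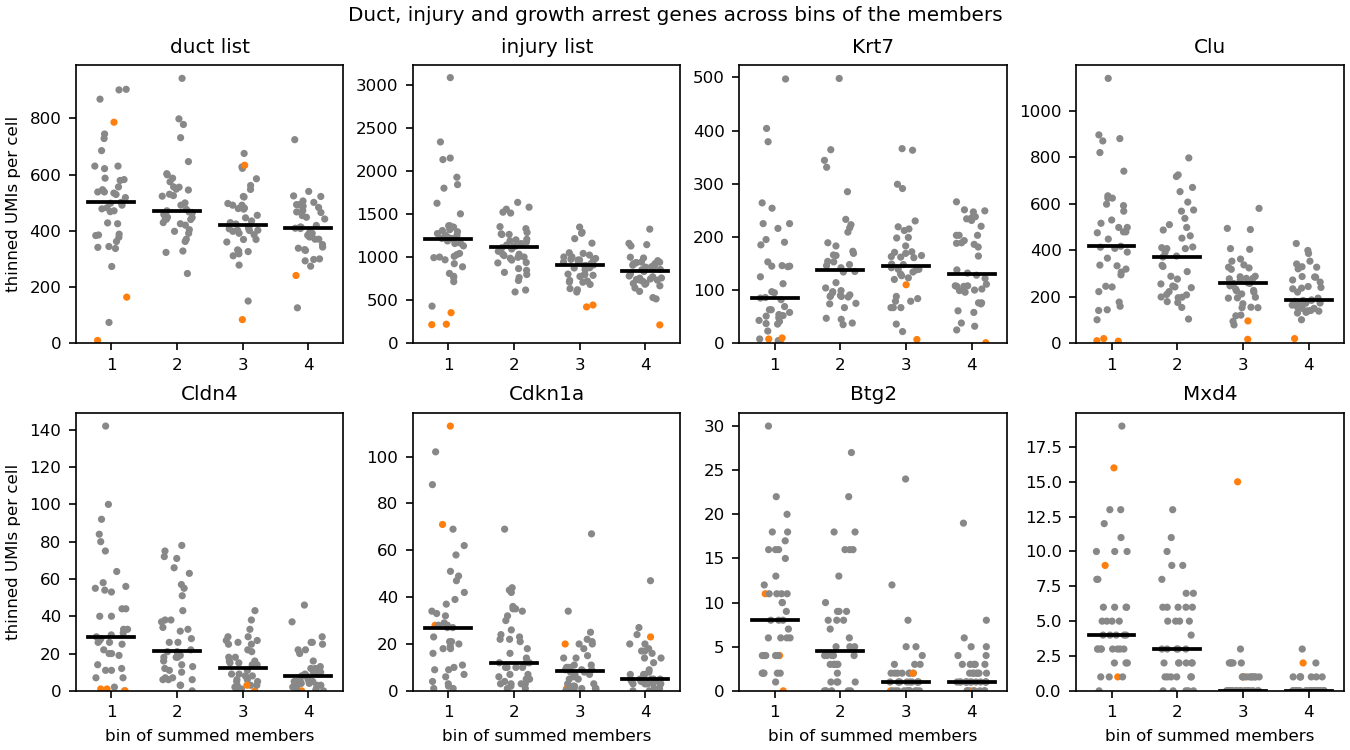
Thinned UMIs per cell of the duct and injury lists and of 6 genes in 4 bins of cells by summed members (41, 40, 40 and 40 cells, lowest to highest). Each point is a cell, horizontal bars are medians and orange points are the 6 fibroblast-rich cells, with random sideways spread. Clu, Cldn4, Cdkn1a, Btg2 and Mxd4 have lower medians in bin 4 than in bin 1, whereas Krt7 has a higher one.

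The summed epithelial list had a rank correlation of -0.33 with the members, close to that of the duct list, the acinar list -0.30, the endocrine list -0.14, the immune list -0.09 and the targets of YAP -0.06, while the endothelial list had 0.16 and the fibroblast and stellate list -0.06. Of these lists 0 genes tested reached 0.4 in either direction, beside 5.64% of all genes tested at or above 0.4 and 0.657% at or below -0.4. The lists had few genes tested, and the immune list had 0. Among the 12 acinar genes tested Ctrb1, chymotrypsinogen B, was lowest with -0.30, and among 6 epithelial genes Cdh1 with -0.36 and Krt8 with -0.33. The fibroblast list had a median of 0 CPM in each of the 4 bins, the immune list at most 5.02 and the endothelial list at most 19.4, and their part in the relations was not tested.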

How the data were processed

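RNA of single cells was analysed. The authors deposited a table of raw UMI counts and a table of raw read counts with 1 row per cell and 32100 genes, with no normalization. Per the submitters' processing notes, tools were STAR and featureCounts, with GRCm38 and mm10 as builds. Versions, how UMIs were collapsed and use of strand are not given in the sources used here.

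Every cell passed the minimum of 1000 UMIs. No doublet caller was run, since each sample is 1 cell per the labels. Pooled UMIs gave levels in CPM, with exact 95% intervals from the Poisson distribution, and shares carry exact 95% binomial intervals. All intervals cover counting error only. Shares, bins and Spearman correlations used cells thinned to 40000 UMIs, and genes with a mean of at least 0.5 thinned UMI entered correlations. A correlation at or beyond 0.4 was counted. The correlation step was also run on simulated data, whose outcome is not given here, and no result rests on that run.

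Named genes were Ccna2, Cdc20, Mki67, the 4 highest and 4 lowest members by share, the 2 most abundant per role, the 15 highest and 5 lowest correlations outside the members, and the 3 highest and 3 lowest of each list. Members and lists were chosen with earlier results of these data known. The call of 0.4, the tolerances, the comparison of late share with S phase genes, the promoter motifs and genes shown, the genes followed through other settings and the steps without Clu, Krt7, Kif4, Acinar93 or Acinar71 or by per-gene medians were chosen after seeing the data. Gene positions are from GENCODE on GRCm38, and promoters from RefSeq GRCm38.p6. Other settings covered reads, cell filters, thinning, seed, scaling and title numbers. Analyses used scipy 1.17.1, pandas 2.3.3 and numpy 2.4.6 under Python 3.11.15, matplotlib 3.10.9 for figures, and scran 1.30.0 under R 4.3.3.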

Additional observations from a re-analysis of the deposited data

How the results depend on the processing

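No direction reversed under the settings tried. The level of the members, 3479 CPM, was 3271 from reads, 3136 with equal weight per cell, 3519 without fibroblast-rich cells, 3452 for title numbers up to 96, 3518 from 97, 3886 without mitochondrial and ribosomal protein genes in the total and 3447 without Acinar93 and Acinar71. The median share of 52.5% was 43.8% thinned to 20000 UMIs, 62.9% thinned to 80000, 65.1% not thinned and 39.1% for at least 2 UMIs, so that shares rest on depth. Kif23 and Stmn1 stayed the highest pair, and Bub1, Kif20a, Ttk and Pif1 the lowest 4, in all 7 settings that ordered the shares. The separation of early from late members by correlation ran from 0.01 to 0.07. The duct correlation of -0.30 was -0.090 as a Pearson value, -0.44 without Krt7 and -0.069 as a per-gene median. The injury correlation of -0.47 was -0.58 for title numbers from 97, -0.37 with scran size factors, -0.35 as a Pearson value, -0.20 without Clu and -0.090 as a per-gene median. The cause of these shifts was not tested, beyond the genes left out. The S phase correlation ran from 0.56 to 0.72. Its relation to the late share ran from -0.86 to -0.74. No paired analysis was possible because all cells form 1 group and no result comes from a test.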
